A study of Fragaria vesca with 8 samples.

Results

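The response of woodland strawberry (*Fragaria vesca*) fruits to overexpression of *FvMYB46* was described from RNA-seq read counts. The libraries were those labelled FvMYB46 overexpression and, as their own control, those labelled empty vector in the same experiment, which gives 4 of the 8 libraries of the study. Each group held 2 libraries. The other 4 libraries, from fruits with FvVND4c overexpression and their separate empty vector, were used for the estimate of the spread and for comparison, and never as a control for FvMYB46. All fruits came from plants of the white-fruited inbred line "Yellow Wonder" and were injected with Agrobacterium. The study places this at the transition from green to white for the FvVND4 constructs and gives no other stage for FvMYB46. The FvMYB46 group carried *35S:FvMYB46*, in which the viral 35S promoter drives the coding region of *FvMYB46*, and the empty-vector group carried the vector without it. RNA was taken 7 days later, with at least 5 fruits per treatment. The transformation is transient, so every library mixes cells that took up the construct with cells that did not, and wounding and bacteria were common to both groups. Fewer responding cells and a weaker response per cell cannot be told apart in such bulk samples. The methods call the replicates biological, without saying which fruits went into each. The p-values rest on the spread between the 2 libraries of a group, estimated over all 4 groups together.

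MYB46 is a transcription factor of the MYB family. In Arabidopsis it acts below the NAC-domain master regulators of the secondary cell wall, the rigid layer of cellulose, xylan and lignin that is laid down inside the primary wall of vessels and fibres once growth has stopped. It is known there for switching on genes for all of these wall polymers. Lignin is made from phenylpropanoids, which are also the precursors of the flavonoids that color and protect fruits. The question of the comparison was which genes of a fleshy fruit, a tissue in which most cells keep thin walls, respond to this regulator.

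The count files name genes by the identifiers of the genome annotation v4.0.a2. Of these 34009 identifiers, 0 could be matched to RefSeq's list of 24946 *F. vesca* genes, which rests on another assembly. The response is therefore described by groups of genes defined by level, size of change, length, chromosome and neighbourhood, and by 4 genes given by identifier. For the same reason the level of *FvMYB46* itself was not checked, and neither were markers of fruit cell types. The coding region in the construct came from the same species, so its reads cannot be told apart from those of the native gene.

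The counts summed to 11603635 and 11792067 with FvMYB46 and to 11677579 and 12845942 with the empty vector. At this depth, the level of 3 counts, the upper limit that a count of 0 allows in a library, was between 0.240 and 0.256 CPM (counts relative to the TMM-scaled library total, brought to a common depth), for counting error only. A total of 18766 genes had enough counts to be tested by edgeR's quasi-likelihood test. A gene counted as upregulated or downregulated when its p, adjusted after Benjamini and Hochberg, was under 0.05 and its log2 fold change was beyond 1 in either direction.

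FvMYB46 raised many more genes than it lowered. Upregulated genes numbered 1889 (10.1% of the genes tested) and downregulated genes 650 (3.46%). Both FvMYB46 libraries lay beyond both empty-vector libraries in each of these genes. This is a weak criterion with 2 libraries a side, as it was also met in the upward direction by 32.9% and in the downward direction by 28.9% of all genes tested. A wider gap was therefore counted, among the called genes only. These had already passed the fold threshold in the same libraries, so the shares follow in part from the call. In 1553 upregulated genes (82.2%) the lower FvMYB46 library was at least 2 times the higher empty-vector library. The same gap in the other direction was found in 345 downregulated genes (53.1%).

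The rises were also larger than the falls. For these sizes the ratio of the mean CPM was used, with groups that had no count set to 3 counts over the group. More than 4-fold changes were found in 1036 upregulated genes (54.8%) and in 125 downregulated genes (19.2%). More than 8-fold changes were found in 614 of the upregulated but only 31 of the downregulated genes. Beyond 32-fold there were 206 upregulated genes and 0 downregulated genes. The median log2 ratio was 2.16 among upregulated and -1.39 among downregulated genes. Since the fold threshold was part of the call, these medians describe the called genes only, and the median fitted log2 fold change of all genes tested was 0.00485.

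**Figure D1:**
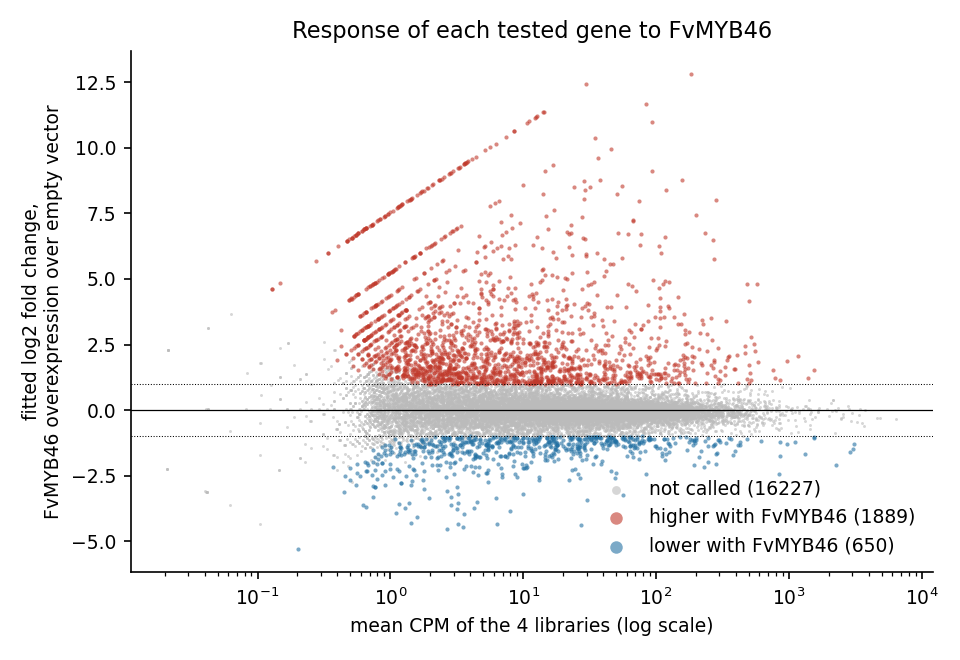
Each point is a gene; the x axis gives its mean CPM over the 4 libraries on a log scale and the y axis the fitted log2 fold change of FvMYB46 overexpression over the empty vector. The 1889 upregulated genes (red) reach far higher than the 650 downregulated genes (blue) reach down; the slanting lines at the left are genes with 0 or a few counts in the empty-vector libraries, whose fitted values depend on the prior count of the test.

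The changed genes took a sizeable part of the RNA. Together the 1889 upregulated genes held 90065 and 92383 CPM in the FvMYB46 libraries, against 22918 and 22222 CPM in the empty-vector libraries. They thus accounted for 9.01% and 9.24% of the scaled counts with FvMYB46, compared with 2.29% and 2.22% with the empty vector. The 650 downregulated genes held 25495 and 21656 CPM with FvMYB46 and 69219 and 55889 CPM with the empty vector. For the upregulated genes the summed replicate libraries were close together in both groups, whereas for the downregulated genes the sum of empty-vector replicate 1 was well above that of replicate 2. Of the downregulated sums with the empty vector, 18287 and 9972 CPM came from 6 neighbouring genes on chromosome 2. These sums follow from how the genes were chosen and carry no test. The same upregulated genes held 57668 and 60744 CPM with FvVND4c and 29058 and 29932 CPM with the empty vector of that experiment. The downregulated genes held 43309 and 48613 CPM with FvVND4c and 46266 and 46064 CPM with its empty vector, without a gap between the groups.

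Genes that were silent in one group, counted over all genes and not only those tested, showed the same asymmetry. This is no separate evidence, as the libraries are the same and 104 of the upregulated genes had no count with the empty vector. Among all 34009 genes, 103 had at least 10 counts in both FvMYB46 libraries but were without a single count in the empty-vector group. Their median with FvMYB46 was 29.0 counts. The opposite pattern, no count with FvMYB46 and at least 10 counts in both empty-vector libraries, was found in 0 genes. At a minimum of 50 counts the numbers were 33 and 0, and at a minimum of 100 counts they were 15 and 0. In the FvVND4c experiment, 34 genes were found only with the construct and 2 only with the empty vector at the minimum of 10 counts. Of the 103 genes, 14 also had at least 10 counts in both FvVND4c overexpression libraries, and 55 had no count in any of the 4 libraries of the FvVND4c experiment.

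Low and high genes differed in how often they were called. Genes were split by their mean over the 4 libraries, which counts both groups alike but is set mostly by the higher group in strongly changed genes. Below 1 CPM, 21.2% of 1125 genes were upregulated and 4.09% downregulated. A gene this low passed the filter mostly through the group in which it was higher, so that share is inflated. Between 1 and 10 CPM, 982 of 6309 genes (15.6%) were upregulated, compared with 529 of 9043 genes (5.85%) between 10 and 100 CPM and 139 of 2289 genes (6.07%) from 100 CPM upwards. For downregulated genes the shares in these ranges were 4.49%, 2.80% and 2.97%. Below 10 CPM, 16.4% of genes were upregulated, against 5.89% from 10 CPM upwards, and the order was the same whichever library of the experiment was left out. When a gene needed 10 counts or more in all libraries to be tested, the shares were closer, at 8.46% and 5.33%. The corresponding shares for downregulated genes were 4.43% and 2.83%, and this order was turned without FvMYB46 replicate 1 (2.63% and 2.88%) or replicate 2 (2.13% and 2.50%).

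The 100 most abundant genes of the fruit had more falls than rises, but larger sets of abundant genes did not. Of the 100 genes with the highest mean CPM, all above 804 CPM, 12 were downregulated and 5 upregulated, set against 3.46% and 10.1% of all genes tested. Of the 12, 4 belong to a downregulated stretch of chromosome 2 described further on. When any 1 library of the experiment was left out, 10 to 11 of the 100 genes were downregulated and 5 upregulated. Among the top 500 genes, 25 were downregulated and 33 upregulated, and among the top 1000 genes 46 and 64.

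Short genes responded more often than long ones. The length used here is the whole gene span, introns included, as the count files give it. Genes were divided by span into 5 bins of equal size. In the shortest bin, with spans from 201 to 1795 bp, 15.3% were upregulated and 6.23% downregulated. In the longest bin, from 5377 to 41652 bp, 6.34% were upregulated and 1.25% downregulated. The shortest bin had a lower level, with a median of 5.16 CPM against 39.3 CPM in the longest bin. Within genes of 10 to 100 CPM, where depth differed less, the shares were 11.8% and 7.16% in the shortest bin and 3.90% and 0.551% in the longest. Leaving out any 1 library of the experiment kept the shortest bin above the longest in both directions. Under the filter of 10 counts or more in all libraries, 8.70% of the shortest and 4.82% of the longest bin were upregulated, and 6.49% and 0.963% downregulated. What the short genes have in common was not tested.

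**Figure D2:**
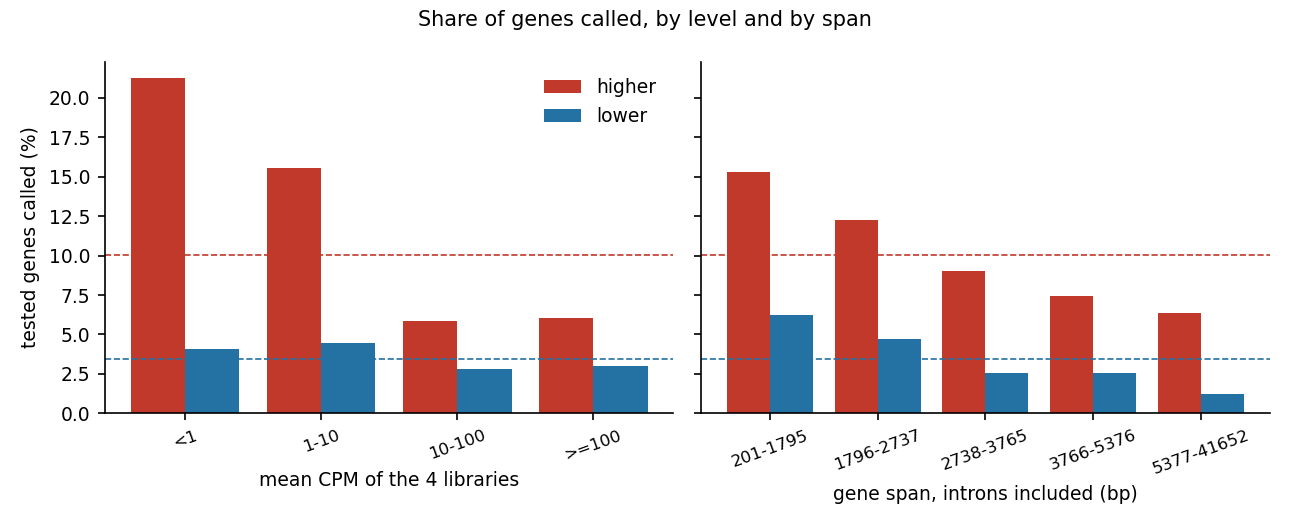
Bars give the percentage of tested genes called higher (red) or lower (blue) upon FvMYB46 overexpression, by mean CPM of the 4 libraries (left) and by 5 bins of the gene span in bp (right). Dashed lines mark 10.1% and 3.46%, the shares over all genes; the share of upregulated genes falls to 6.34% in the longest bin.

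All 7 chromosomes took part. The share of upregulated genes lay between 9.39% on chromosome 5 and 11.4% on chromosome 4, and that of downregulated genes between 2.97% on chromosome 7 and 3.95% on chromosome 3. These values are close to those of the whole genome. The 17 tested genes on unplaced contigs included no called gene.

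The 2 highest and 2 lowest fitted log2 fold changes among called genes with a mean of at least 1 CPM belong to the genes given by identifier. Where the empty-vector counts are at or near 0, the fitted value depends on the prior count, so these are not shown to be the genes that rose most. FvH4_6g38160 lies on the plus strand of chromosome 6 from 30196094 to 30197635. It had 4161 and 4453 counts with FvMYB46, which is 354 and 378 CPM, and 0 and 1 counts with the empty vector. The groups were far apart, with a ratio of the pooled counts of 8947 (exact 95% binomial limits of 1605 and 353440, for counting error alone). The adjusted p was 4.44e-09 by edgeR's quasi-likelihood test. In the FvVND4c experiment the gene stood at 19.7 and 24.1 CPM with the construct, against 0.775 and 0.246 CPM without it.

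FvH4_7g25521 lies on the minus strand of chromosome 7 from 19459748 to 19461477. The FvMYB46 libraries held 678 and 722 counts of it, or 57.7 and 61.3 CPM, and no empty-vector library of either experiment held any. Its level with FvMYB46 was 485 times the level that 3 counts over the empty-vector group would give, and the exact 95% binomial limits put the ratio at no less than 394, for counting error alone. The adjusted p was 8.64e-08 by edgeR's quasi-likelihood test. The libraries with FvVND4c held 163 and 110 counts of it. Both of these genes thus also had reads with FvVND4c, at a lower level than with FvMYB46.

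FvH4_7g21790, on the plus strand of chromosome 7 from 17350636 to 17353445, had 0.170 and 0.255 CPM with FvMYB46 and 8.55 and 1.76 CPM with the empty vector. The empty-vector libraries were far apart, although both lay above the FvMYB46 libraries. The log2 fold change was -4.52 (standard error 0.91, adjusted p = 0.00358 by edgeR's quasi-likelihood test), or -2.99 without empty-vector replicate 1. In the FvVND4c experiment the libraries had 0.263 and 0.655 CPM with the construct, against 1.46 and 2.87 CPM without it.

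FvH4_6g24670, on the minus strand of chromosome 6 from 18708661 to 18710045, fell to 0.170 and 0.425 CPM with FvMYB46, against 5.70 and 7.76 CPM with the empty vector. Here the replicate libraries were close together and the groups well apart (log2 fold change -4.45, standard error 0.40, adjusted p = 1.39e-05 by edgeR's quasi-likelihood test). The FvVND4c experiment differed for this gene, with 1.67 and 1.96 CPM with the construct and 1.21 and 1.07 CPM without it. None of the 4 genes has a span that overlaps another gene.

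**Figure D3:**
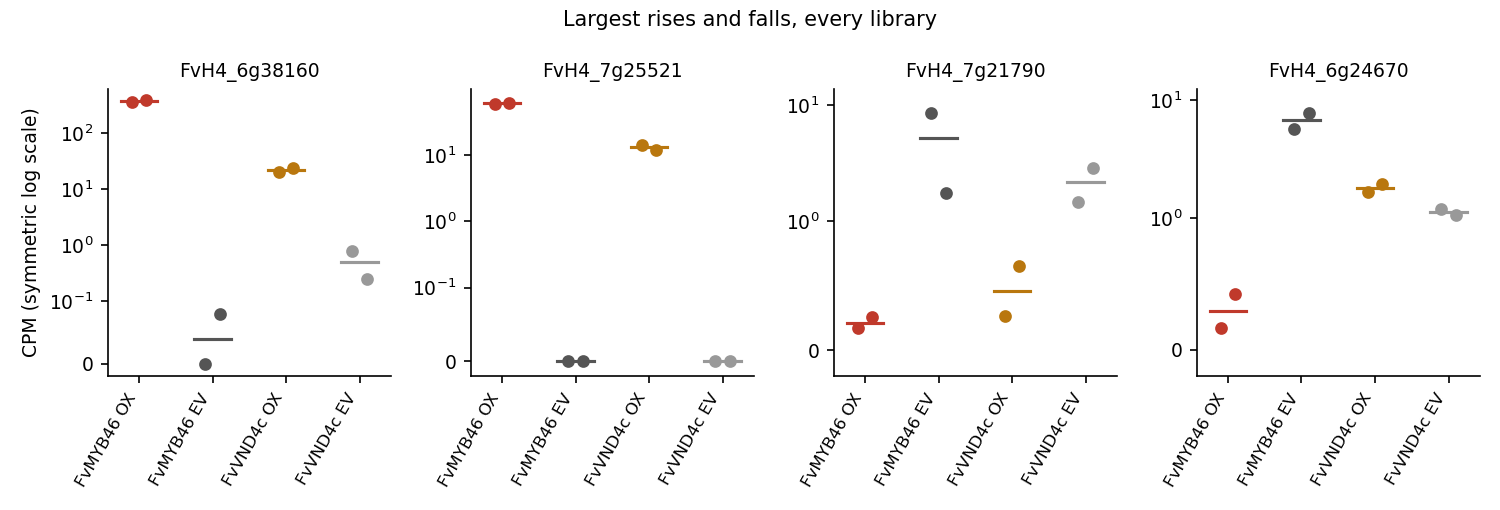
CPM in each of the 8 libraries for the 4 genes, on a symmetric log scale that holds 0; points are libraries, bars are means of 2, OX is overexpression and EV empty vector. The left pair of genes reaches 366 and 59.5 CPM on average with FvMYB46 and is at or near 0 with its empty vector, while FvH4_7g21790 shows the wide gap between its empty-vector libraries.

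The empty-vector libraries disagreed more than the FvMYB46 libraries, and this bears on the calls. On log2(CPM + 0.5), the 2 FvMYB46 libraries were more than 2-fold apart in 80 of the 18766 genes (0.426%) and the 2 empty-vector libraries in 706 (3.76%). In 678 of the 706 genes replicate 1 was the higher. Among downregulated genes, 84 (12.9%) had empty-vector libraries more than 2-fold apart, with replicate 1 higher in 82 of them. Among upregulated genes the number was 127 (6.72%), and replicate 1 was higher in 126. The FvMYB46 libraries were more than 2-fold apart in only 4 downregulated and 5 upregulated genes. The sources used here name no difference between empty-vector replicates 1 and 2, and none was tested.

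The calls were repeated without each library. Without empty-vector replicate 1, 2223 genes were upregulated and 602 downregulated, including 1764 of the 1889 and 464 of the 650. Without empty-vector replicate 2, 1691 were upregulated and 875 downregulated, including 1547 of the 1889 and 535 of the 650. Without FvMYB46 replicate 1 or 2, 1567 or 1600 genes were upregulated and 523 or 442 downregulated. When limma-voom was allowed to give each library a weight, the empty-vector libraries received 0.485 and 0.481 and the FvMYB46 libraries 1.76 and 1.76, and 1702 upregulated and 610 downregulated genes were called, 1683 and 605 of them shared with the lists above. No gene of these lists was called in the opposite direction in any of these fits. As the groups did not overlap in any of these genes, that outcome was fixed in advance and is no support.

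**Figure D4:**
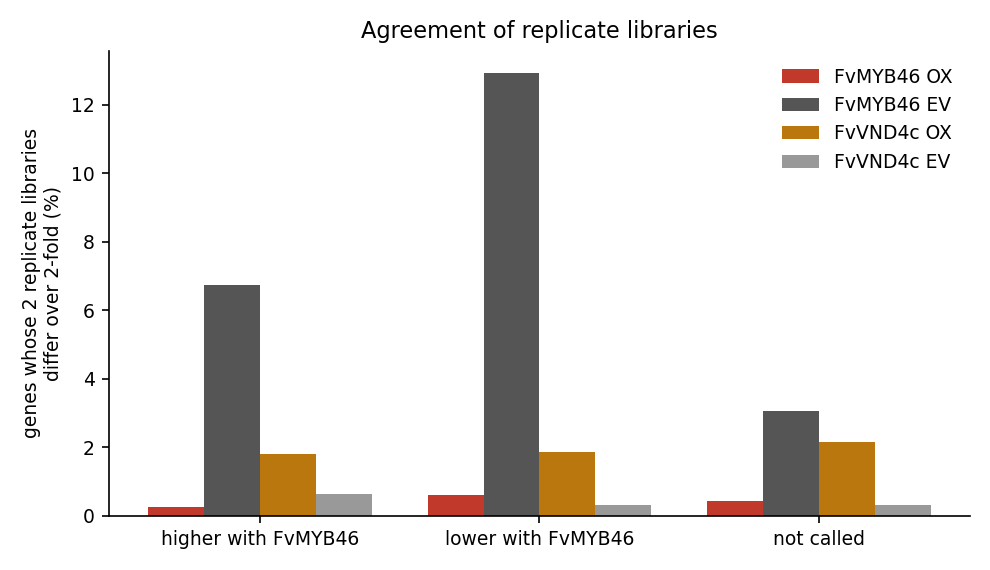
Percentage of genes whose 2 replicate libraries differ more than 2-fold on log2(CPM + 0.5), by group (OX overexpression, EV empty vector), for genes called higher, called lower or not called upon FvMYB46 overexpression. The FvMYB46 empty vector stands at 12.9% among downregulated genes, while the FvMYB46 overexpression libraries are below 1% in all 3 classes.

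Upregulated genes lay beside each other more often than the background. When a gene was upregulated, the next tested gene on the chromosome was upregulated as well in 328 of 1889 cases (17.4%), compared with 10.1% of all genes tested and with 9.33% when the gene itself was not called. When a gene was downregulated, the next one was downregulated in 57 of 650 cases (8.77%), compared with 3.46% of all genes tested. Leaving out any 1 library of the experiment gave 14.7% to 18.7% for upregulated genes, where 8.16% to 11.5% of all genes tested were upregulated in these fits, and 5.88% to 9.37% for downregulated genes, where 2.30% to 4.52% of all were downregulated. Of the 328 pairs, 210 (64.0%) were on the same strand, against 53.0% of all neighbouring tested genes. Neighbouring genes are often copies of each other, and reads of near-identical copies may be assigned to the wrong one or dropped. Sequence likeness was not examined here, so neighbours cannot be counted as independent responses. When a gene needed 10 counts or more in all libraries to be tested, 11.1% of upregulated genes were followed by an upregulated one, against 6.27% of all genes tested under this filter. This filter leaves out every gene without reads in a library.

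Runs of at least 3 tested neighbours called in one direction numbered 48 for upregulated genes (170 genes) and 8 for downregulated genes (29 genes). Of all genes tested, 10.1% were upregulated and 3.46% downregulated, so some runs would arise without any clustering. How many was not tested. The longest run, of 8 genes within 15.6 kb of chromosome 4 (22758408 to 22774051), rose in sum to 1805 and 1857 CPM with FvMYB46, against 267 and 274 CPM with the empty vector. This run held 1058 and 1388 CPM with FvVND4c, against 571 and 676 CPM with the empty vector of that experiment. The latter was thus well above the empty vector of the FvMYB46 experiment. A run of 6 tested genes on chromosome 5 (2022945 to 2053961) summed to 58.3 and 61.3 CPM with FvMYB46 and 18.2 and 16.1 CPM with the empty vector. It held 4 to 5 called genes when any 1 library of the experiment was left out, 4 with DESeq2 on the 4 libraries, with limma-voom weights or with limma on log2(TPM + 1), and 2 under the filter of 10 counts or more in all libraries. With FvVND4c it summed to 51.5 and 64.2 CPM, against 21.7 and 26.5 CPM with its empty vector.

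On chromosome 1, 6 tested genes on the plus strand between 11377822 and 11489620 were upregulated, with 11 untested genes between them. Within this run the levels were very unequal. One gene, from 11440881 to 11442866, reached 185 and 190 CPM with FvMYB46 and had 0.587 and 0.0800 CPM with the empty vector. Its neighbour from 11431895 to 11434771 was already abundant, at 1127 and 1122 CPM with FvMYB46 and 317 and 461 CPM with the empty vector. The tested gene between them had 1.19 and 0.934 CPM with FvMYB46 and no count with the empty vector. The log2 fold changes of the run ranged from 1.53 to 9.11 (adjusted p of at most 0.00569 by edgeR's quasi-likelihood test). The run held 4 to 6 called genes when any 1 library of the experiment was left out, and 3 under the filter of 10 counts or more in all libraries. The 3 genes of this run whose levels are given singly were chosen after their values were seen.

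On chromosome 2, 6 adjacent genes between 16869122 and 16895221, all on the plus strand and with no other gene between them, were upregulated by 1.66 to 3.83 on the log2 scale. Together they held 82.4 and 89.8 CPM with FvMYB46 and 23.1 and 16.5 CPM with the empty vector. All 6 were called whichever library of the experiment was left out, and 3 under the filter of 10 counts or more in all libraries. Their sum was intermediate with FvVND4c, at 44.3 and 53.9 CPM, against 26.8 and 28.3 CPM with its empty vector.

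Further along the same chromosome, the 6 adjacent genes between 17794849 and 17832538 were downregulated, again all on the plus strand with no other gene between them. They include some of the most abundant transcripts of the fruit. Their sum was 5714 and 3795 CPM with FvMYB46, against 18287 and 9972 CPM with the empty vector. The fall was -1.28 to -2.66 on the log2 scale (adjusted p of at most 0.00651 by edgeR's quasi-likelihood test). The empty-vector libraries were far apart here, and 3 of the 6 genes differed more than 2-fold between them. FvMYB46 replicate 1 also lay above FvMYB46 replicate 2 at all 6 genes. Without empty-vector replicate 1 only 3 of the 6 genes remained downregulated, without FvMYB46 replicate 2 there were 4, and with DESeq2 fitted on the 4 libraries alone there were 3. In the FvVND4c experiment the sums were 6893 and 7672 CPM with the construct and 9765 and 9104 CPM with the empty vector. The empty vector of that experiment was thus close to replicate 2 and well below replicate 1 of the FvMYB46 empty vector.

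**Figure D5:**
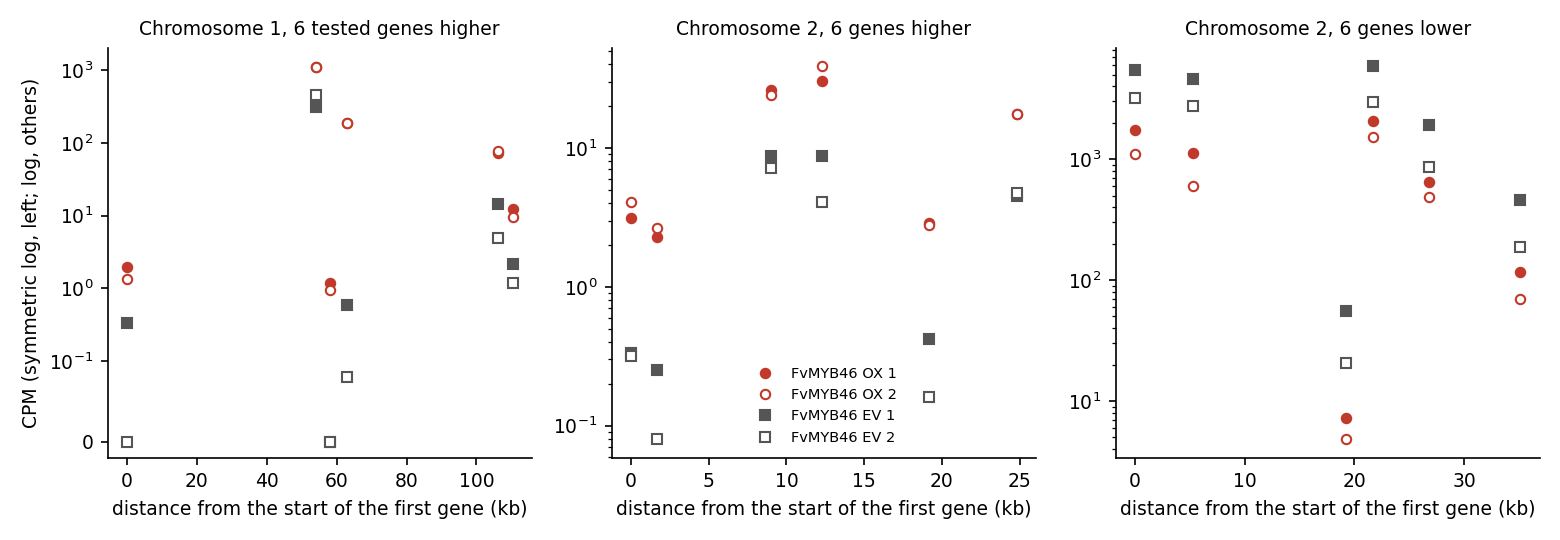
CPM of each called gene in 3 runs of neighbours, against the distance in kb of its start from that of the first gene; circles are FvMYB46 overexpression (OX) and squares its empty vector (EV), filled for replicate 1 and open for replicate 2. In the run on chromosome 1 and the upregulated run on chromosome 2 the OX points are close together and above the EV points. In the downregulated run replicate 1 lies above replicate 2 at all 6 genes, for EV and for OX.

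The spans of some called genes overlap another gene, whose reads cannot be told apart where counting ignores strand. An overlap was found for 215 upregulated genes (11.4%) and 72 downregulated genes (11.1%), against 14.3% of all genes tested. Of 825 pairs of tested genes that overlap on opposite strands, both were upregulated in 10, both downregulated in 3, and one was upregulated and one downregulated in 2.

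The response to FvMYB46 was also set against that to FvVND4c, a NAC-domain factor of the VND group. By itself FvVND4c upregulated 783 genes (4.17%) and downregulated 209 (1.11%), each counted from its own empty vector. In an interaction test between the experiments, which uses edgeR's quasi-likelihood test and the thresholds given above, the response to FvMYB46 was higher than that to FvVND4c in 1099 genes (5.86% of the genes tested) and lower in 707 (3.77%). The interaction rests on the same FvMYB46 libraries as the calls, so the share of called genes that pass it is not given. The empty-vector groups enter it too, and they differed in 420 genes. In 116 of these (0.618%) the empty vector of the FvMYB46 experiment was higher, and in 304 (1.62%) it was lower. Of the 420 genes, 297 also passed the interaction test. Of the 304, 210 were upregulated with FvMYB46, set against 10.1% of all genes tested. These comparisons share the FvMYB46 empty-vector libraries, so such overlap is partly built in. The part of the empty-vector differences in the interaction was not tested. The interaction could not be estimated for 84 tested genes for which all 4 empty-vector libraries were at 0, among them FvH4_7g25521.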

How the data were processed

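Counts of reads per gene were deposited for 8 libraries. Per the labels and methods, the authors used fastp 0.20.1, HISAT2 2.2.1 with the *F. vesca* v4.0.a2 genome, SAMtools 1.9, which dropped PCR duplicates, and featureCounts 2.0.3, whose strand setting the sources used here do not give. Removing duplicates without molecular identifiers can lower the counts of abundant genes most. Every gene length equals the whole span, so intronic reads may be included. The deposited TPM values for 17698 genes were found to be count over span, rescaled by the authors, and served only as an alternative. The methods state 3 biological replicates and the labels list 2, which were used.

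Calls come from edgeR 4.0.16 (R 4.3.3, limma 3.58.1) with filterByExpr, TMM and the quasi-likelihood test. All 8 libraries and 4 groups entered the same model, without covariates. The common biological coefficient of variation was 0.107, or 0.119 in the 4 FvMYB46 libraries alone. The smallest permutation p for 2 libraries against 2 is 0.333, so none was run. The standard error is the log2 fold change over the square root of F. The test was tried on simulated counts. Identifiers are given for the 2 highest and the 2 lowest fitted fold changes among called genes, with non-overlapping groups and a mean of at least 1 CPM. Members, lists and rules were chosen with earlier results of these data known. Alternatives were DESeq2 1.42.0, limma-voom with sample weights, limma on log2(TPM + 1), RLE size factors, other filters, thresholds and samples, the replicate number as a block, leaving out each library and, added after the data were seen, only the genes of the TPM files.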

Additional observations from a re-analysis of the deposited data

Results flagged for a closer look

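Some results differed between the FvMYB46 and FvVND4c experiments by the interaction test of edgeR. Over all genes tested, the response to FvMYB46 was higher in 1099 genes and lower in 707. FvH4_6g38160 rose more with FvMYB46, by 7.38 on the log2 scale (standard error 0.95, adjusted p = 4.84e-04 from edgeR), a fitted value that depends on the prior count because the FvMYB46 empty-vector libraries together held 1 count. Part of it is the fitted difference between the empty vectors, -3.32 on the log2 scale, which did not pass the test (adjusted p = 0.106 by edgeR). With the constructs the gene stood at 354 and 378 CPM (FvMYB46) and at 19.7 and 24.1 CPM (FvVND4c). FvH4_6g24670 had 0.170 and 0.425 CPM with FvMYB46, against 5.70 and 7.76 CPM with its empty vector, and 1.67 and 1.96 CPM with FvVND4c, against 1.21 and 1.07 CPM with its empty vector. The interaction was -5.11 on the log2 scale (standard error 0.58, adjusted p = 2.01e-04 by edgeR). Part of it is a difference of 2.56 on the log2 scale between the empty vectors of the FvMYB46 and FvVND4c experiments, which passed the test as well (adjusted p = 0.0011 by edgeR).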

How the results depend on the processing

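The 2539 calls (1889 higher, 650 lower) stayed within 1.5 times of these numbers except in the following cases. With at least 10 counts in every library there were 1507 calls, 1007 of them higher, and with no fold threshold 4935, of which 2940 were higher and 1995 lower. With limma on log2(TPM + 1), 402 genes were lower. Leaving out 1 library gave 2042 to 2825 calls, with 1567 to 2223 higher and 442 to 875 lower. DESeq2 on 8 or 4 libraries called 1551 or 1477 genes higher and 561 or 499 lower. Upregulated genes made up 65.9% of the calls without empty-vector replicate 2 and 78.7% without replicate 1. The 1806 genes whose response differed from that to FvVND4c became 2831 with no fold threshold, with 1323 lower, and 451 were lower with limma on log2(TPM + 1). Leaving out 1 library gave 1237 to 2394 such genes, with 728 to 1604 higher and 509 to 906 lower. The fewest higher were found without FvVND4c empty-vector replicate 1 (728) and FvMYB46 overexpression replicate 2 (730). With the replicate number as a block, 1942 genes were higher and 682 lower. The labels tie the numbers to no shared batch, and the deviations of same-numbered FvMYB46 and empty-vector libraries had a correlation of 0.151 across genes. The genes given by identifier kept their direction and their call in all 13 alternative fits that tested them, which leaves out the filter of at least 10 counts in every library. They were chosen for extreme fitted changes and non-overlapping groups in the same libraries, so this outcome was nearly certain beforehand and is no support.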
